A study of Homo sapiens with 12 samples.

Results

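The 5 mature microRNAs (miRNAs) described here each stood highest in the extracellular vesicles of 1 cancer cell line: hsa-miR-708-5p, hsa-miR-455-3p, hsa-miR-577, hsa-miR-934 and hsa-miR-1262. They are 5 of the 1636 miRNAs of the deposited count table. They were chosen by name, because earlier work on the same counts showed each concentrated in 1 line and because their hairpins lie in introns of the protein-coding genes TENM4, COL27A1, UGT8, VGLL1 and WLS. The line with the highest mean level of each is called its marking line: MDST8 for miR-708-5p and miR-455-3p, SW1116 for miR-577, Car-1 for miR-934 and Hutu80 for miR-1262. Since these levels chose the miRNAs, the contrast of the marking line with the rest is given as a description, with no test.

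Small RNA was sequenced from vesicles shed into the medium by 6 human cell lines, MDST8, SW1116, Car-1, Hutu80, HT55 and RCM-1; each line had 2 libraries, 12 in all. The labels name no treatment and call every line colorectal cancer, though Hutu80 is known elsewhere as a line from the duodenum. They tie no line to a molecular subtype, so each comparison is between single lines. All lines were grown with fetal bovine serum, and vesicles were separated by size-exclusion chromatography. The shallowest library, from Hutu80, held 71831 counts and the deepest, from SW1116, 622800, so that 1 count was worth 13.9 CPM (counts expressed per equal library size) in the shallowest library and 1.61 CPM in the deepest. All 9 miRNAs listed as markers of colorectal epithelium were detected in both libraries of every line, with a summed level of 5251 to 6338 CPM in MDST8, 13240 to 15898 CPM in Hutu80 and 45655 to 139492 CPM in the other 4 lines. Of 7 stromal and muscle miRNAs, whose sum was 180 to 871 CPM, 3 (MDST8 and RCM-1) to 6 (SW1116) were detected in both libraries of a line. At most 2 were at 0 in both. In CPM scaled as below, miR-143-3p was at 91.7 to 313 and miR-1-3p at 34.6 to 547, and each of the rest at 0 to at most 27.9. Of 7 blood and serum miRNAs, whose sum was 1375 to 6526 CPM, 5 to 6 were detected in both libraries of a line, and at most 1 was at 0 in both. The part of these cells or of serum RNA in the levels below was not tested. Whether a line was cultured once or more often for its pair of libraries is not in the labels, and p-values may measure technical spread only. RNA of the cells themselves was not analysed here, so more of a miRNA in the cells and more of it loaded into vesicles cannot be told apart.

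An intronic miRNA is cut from the primary transcript of the gene that hosts it, or from a transcript of its own that starts inside that gene. The hairpin is trimmed in the nucleus and again in the cytoplasm to a short duplex, and usually 1 arm of the duplex is kept by an Argonaute protein while the other arm is largely lost. The kept arm pairs with messenger RNAs mainly through its seed, bases 2 to 8, and lowers their output. The 5 hosts have unrelated roles. TENM4 is a teneurin, a large transmembrane protein of neurons and other cells, and COL27A1 is a fibrillar collagen of cartilage. UGT8 adds galactose to ceramide to make lipids of myelin, VGLL1 is a cofactor of the TEAD transcription factors, and WLS carries Wnt proteins to the cell surface.

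The mature sequences are shown because the seed, printed in capitals, says whether any of the 5 belong to 1 family. All were matched by name in the RefSeq table for GRCh38.p14.
miR-708-5p: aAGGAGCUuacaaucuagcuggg
miR-455-3p: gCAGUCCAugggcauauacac
miR-577: uAGAUAAAauauugguaccug
miR-934: uGUCUACUacuggagacacugg
miR-1262: aUGGGUGAauuuguagaaggau
The opposite arms of the first 2 hairpins are listed too, since they were counted separately.
miR-708-3p: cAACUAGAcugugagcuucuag
miR-455-5p: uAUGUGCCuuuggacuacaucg
The 5 seeds all differ. Each mature sequence has a single position in the RefSeq table. In GC content they ran from 28.6% for miR-577 and 36.4% for miR-1262 to 47.8% for miR-708-5p, 50.0% for miR-934 and 52.4% for miR-455-3p, beside a median of 50% over 286 of the 318 miRNAs tested. In that table miR-3139 shares the seed of miR-708-5p, and miR-4701-3p and miR-6736-5p share that of miR-1262. Of these 3, miR-6736-5p is in the count table, with 0 counts in all 12 libraries. miR-28-5p, known to share the seed of miR-708-5p, was tested, and its values are given further on.

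The hairpins show where each mature arm, in capitals, sits in its precursor.
MIR455: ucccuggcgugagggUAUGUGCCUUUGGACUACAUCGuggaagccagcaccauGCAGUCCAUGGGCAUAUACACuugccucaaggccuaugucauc
MIR577: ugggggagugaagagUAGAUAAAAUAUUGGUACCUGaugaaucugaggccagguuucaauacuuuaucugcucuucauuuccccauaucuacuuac
MIR934: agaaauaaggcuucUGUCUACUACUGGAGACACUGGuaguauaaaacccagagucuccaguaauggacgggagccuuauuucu
MIR1262: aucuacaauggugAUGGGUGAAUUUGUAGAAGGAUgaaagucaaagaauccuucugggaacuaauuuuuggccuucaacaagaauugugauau
In MIR577, MIR934 and MIR1262 the counted miRNA is the 5′ arm. In MIR455 the 3′ arm is the one counted more often, as described further on.

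All 5 hairpins lie on the strand of their host and outside every exon of the protein-coding transcripts that span them in the GENCODE 29 annotation of GRCh38. MIR708 (chromosome 11, 79402022 to 79402109, minus strand) is in the first intron of TENM4-201, between exons 1 and 2, 38399 bases after the upstream exon of an intron of 142965 bases. MIR455 (chromosome 9, 114209434 to 114209529, plus strand) is between exons 10 and 11 of the 61 exons of COL27A1-201, in an intron of 3378 bases, and ends 145 bases before the downstream exon. MIR577 (chromosome 4, 114656759 to 114656854, plus strand) is between exons 2 and 3 of UGT8-201, in an intron of 40292 bases. MIR934 (chromosome X, 136550878 to 136550960, plus strand) starts 56 bases after exon 4 of VGLL1-201, in the last intron, of 5629 bases. MIR1262 (chromosome 1, 68183518 to 68183610, minus strand) is between exons 2 and 3 of WLS-201, in an intron of 34707 bases. The positions thus ranged from next to an exon (MIR934, MIR455) to 38399 or more bases away from either one (MIR708). No other annotated miRNA gene lay within 10 kb of any of them. MIR1262 is also overlapped, on the opposite strand, by the antisense gene GNG12-AS1.

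**Figure D1:**
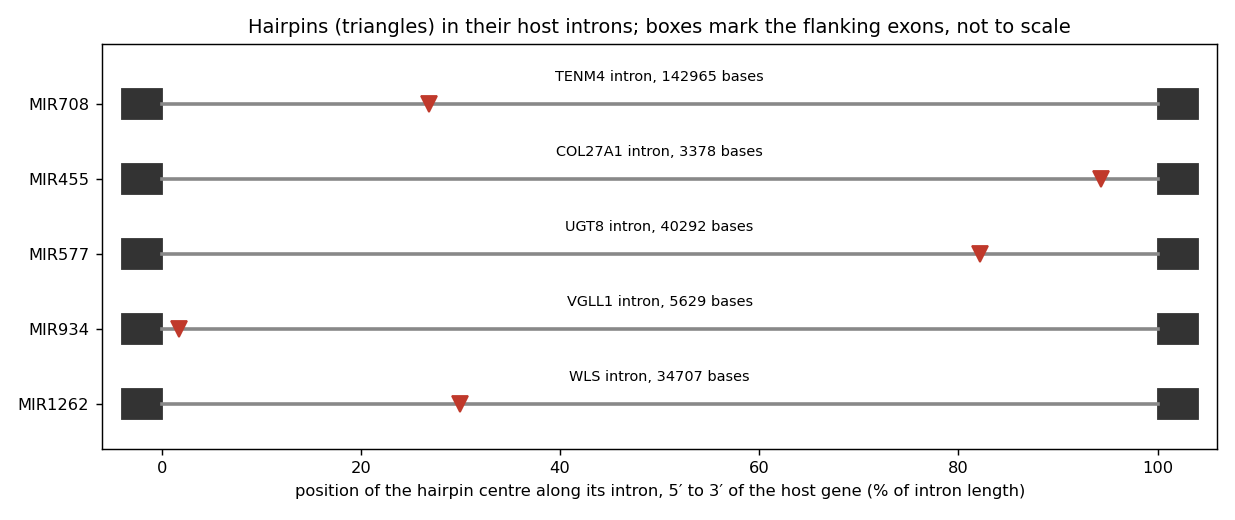
Position of the centre of each hairpin (triangle) along its host intron, in percent of the intron's length from the upstream to the downstream exon. MIR934 sits 56 bases after the upstream exon and MIR455 145 bases before the downstream one, while MIR708 is 38399 bases into an intron of 142965 bases.

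Of the 5, hsa-miR-1262 stood furthest above the other lines with all 12 libraries and the scaling used below. Hutu80 had 115 and 254 counts, the other 10 libraries 2 to 16. In CPM scaled by trimmed-mean (TMM) factors, the unit of every level below unless stated, hsa-miR-1262 was at 1258 and 2133 in Hutu80, against a lowest value of 17.4, a median of 35.3 and a highest of 65.0 in the other 10 libraries. Both Hutu80 libraries lay above all others, and the lower of them was 19.4 times the highest of the rest. The mean was 1696 ± 619 in Hutu80 and 46.7 ± 25.8 in Car-1, the next line (SD, n = 2 each). Hutu80 had the 2 shallowest libraries of the 12. Its mean was 46.1 times the mean of the other 5 line means (log2 ratio 5.53), or 28.5 times without Hutu80 replicate 2. With library totals as the only scaling this ratio was 55.3, and that of miR-934 in Car-1 was 56.5. By mean level miR-1262 ranked 61 of the 1636 miRNAs in Hutu80, and 251 in Car-1.

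Below Hutu80, the order was Car-1, MDST8 (39.5 ± 1.93), SW1116 (39.1 ± 11.1), RCM-1 (33.5 ± 19.6) and HT55 (25.0 ± 10.7; SD, n = 2 each). The ranges of neighbouring lines overlapped at every step of this order. A test of these 5 lines against each other, the edgeR quasi-likelihood F-test, did not pass (F = 0.347, adjusted p = 0.846). miR-1262 met the filter of this test (about 52.7 unscaled CPM in 2 libraries) only through Hutu80, since 1 library of another line reached it. Low levels outside Hutu80 were also part of the choice, so the test cannot show that the 5 lines are alike.

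MDST8 vesicles held the highest levels of both miR-708-5p and miR-455-3p. For hsa-miR-708-5p, 155 and 239 counts were found in MDST8, against 7 and 1 in SW1116, 7 and 4 in Car-1, 2 and 1 in Hutu80, 2 and 10 in HT55, and 5 and 8 in RCM-1. The MDST8 libraries were at 492 and 751 scaled CPM and the other 10 at 3.13 to 46.5, with a median of 20.9. The groups did not overlap, and the lower MDST8 library was 10.6 times the highest of the rest. The mean was 621 ± 183 in MDST8, against 31.9 ± 20.6 in HT55, 28.2 ± 6.38 in RCM-1, 24.2 ± 5.97 in Car-1, 15.1 ± 9.53 in Hutu80 and 9.38 ± 8.84 in SW1116 (SD, n = 2 each). The ratio of the MDST8 mean to that of the other line means was 28.5 (log2 ratio 4.84). Hutu80 had only 3 counts in all, and the pooled ratio of unscaled CPM to that line was 35.0 (95% counting interval 11.9 to 170). All neighbouring lines below MDST8 had overlapping ranges. MDST8 also had the lowest sum of the colorectal epithelial list (5251 to 6338 CPM), whose part in these levels was not tested.

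hsa-miR-455-3p had 206 and 397 counts in MDST8, against 24 and 10 in SW1116, 28 and 19 in Car-1, 3 and 8 in Hutu80, 11 and 22 in HT55, and 5 and 4 in RCM-1. This came to 654 and 1247 scaled CPM in MDST8, against 11.8 to 114 in the other 10 libraries, whose median was 60.4. Again no library of another line reached MDST8, with a factor of 5.75 between the lower MDST8 library and the highest of the rest. The MDST8 mean of 950.5 ± 419 was 14.9 times the mean of the other line means (log2 ratio 3.90). miR-455-3p had the most counts of the 5 outside its marking line (134). There the means fell in the order Car-1 (104 ± 13.3), HT55 (98.9 ± 4.78), Hutu80 (50.0 ± 24.3), SW1116 (42.5 ± 15.7) and RCM-1 (22.3 ± 14.7; SD, n = 2 each). In scaled CPM the ranges of HT55 and Hutu80 did not overlap, while those of the other neighbours did. In unscaled CPM HT55 and Hutu80 overlapped as well, with 79.3 in HT55 replicate 1 and 79.6 in Hutu80 replicate 2.

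Counts of hsa-miR-577 were low throughout. SW1116, with the 2 deepest libraries, had 45 and 44. Car-1 had 7 and 3, HT55 0 and 6, RCM-1 1 and 4, Hutu80 0 and 1, and MDST8 1 and 1. In scaled CPM the SW1116 libraries were at 100.5 and 138 and the other 10 at 0 to 28.4, with a median of 7.47. The groups did not overlap. The means were 119 ± 26.5 in SW1116, 21.7 ± 9.51 in Car-1, 13.9 ± 19.7 in HT55, 9.18 ± 3.74 in RCM-1, 4.20 ± 5.94 in Hutu80 and 3.16 ± 0.024 in MDST8 (SD, n = 2 each), and neighbours below SW1116 all overlapped. The SW1116 mean was 11.4 times the mean of the others (log2 ratio 3.51). The TMM factors of SW1116 (0.72 and 0.641) were the lowest of the 12, and with library totals as the only scaling the ratio was 6.46. It was 17.9 without HT55 replicate 2. Against the 2 counts of MDST8 the pooled ratio of unscaled CPM was 25.7 (95% counting interval 6.90 to 215), and against the 1 count of Hutu80 it was 13.7 (2.39 to 546).

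hsa-miR-934 was the most sparsely detected. Car-1 had 61 and 29 counts, at 248 and 145 scaled CPM. The other 10 libraries held 24 counts in all, of which 21 were in SW1116 replicate 1 (46.9 scaled CPM) and 0 in SW1116 replicate 2. HT55, RCM-1 and MDST8 had 1 count each in 1 of their 2 libraries, and Hutu80 had 0 in both, which with its total of 172362 counts allows up to 17.4 unscaled CPM. Both Car-1 libraries were above all others, the lower one 3.09 times SW1116 replicate 1. The mean was 196 ± 72.8 in Car-1 and 23.4 ± 33.2 in SW1116 (SD, n = 2 each), the next line, followed by HT55 at 4.34, RCM-1 at 3.27 and MDST8 at 1.57. Neighbours below Car-1 overlapped.

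The size of the Car-1 excess in miR-934 depended on SW1116 replicate 1. Over all 10 other libraries the Car-1 mean was 30.1 times the mean of the other line means (log2 ratio 4.91). It was 105 times without SW1116 replicate 1, 16.8 times without SW1116 replicate 2 and 56.5 times with library totals as the only scaling. Pooled over unscaled counts, the ratio was 34.2 (95% counting interval 21.6 to 56.1) with that library and 213 (70.7 to 1054) without it, where 3 counts remained in 9 libraries. Against the 1 count of MDST8 the ratio was 187 (32.8 to 7484), against that of RCM-1 158 (27.6 to 6306) and against that of HT55 100.1 (17.5 to 3999). Car-1 stood at least 16.7-fold higher than Hutu80, taking 3 counts over the 2 Hutu80 libraries as the limit. Intervals and limits cover counting error only.

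**Figure D2:**
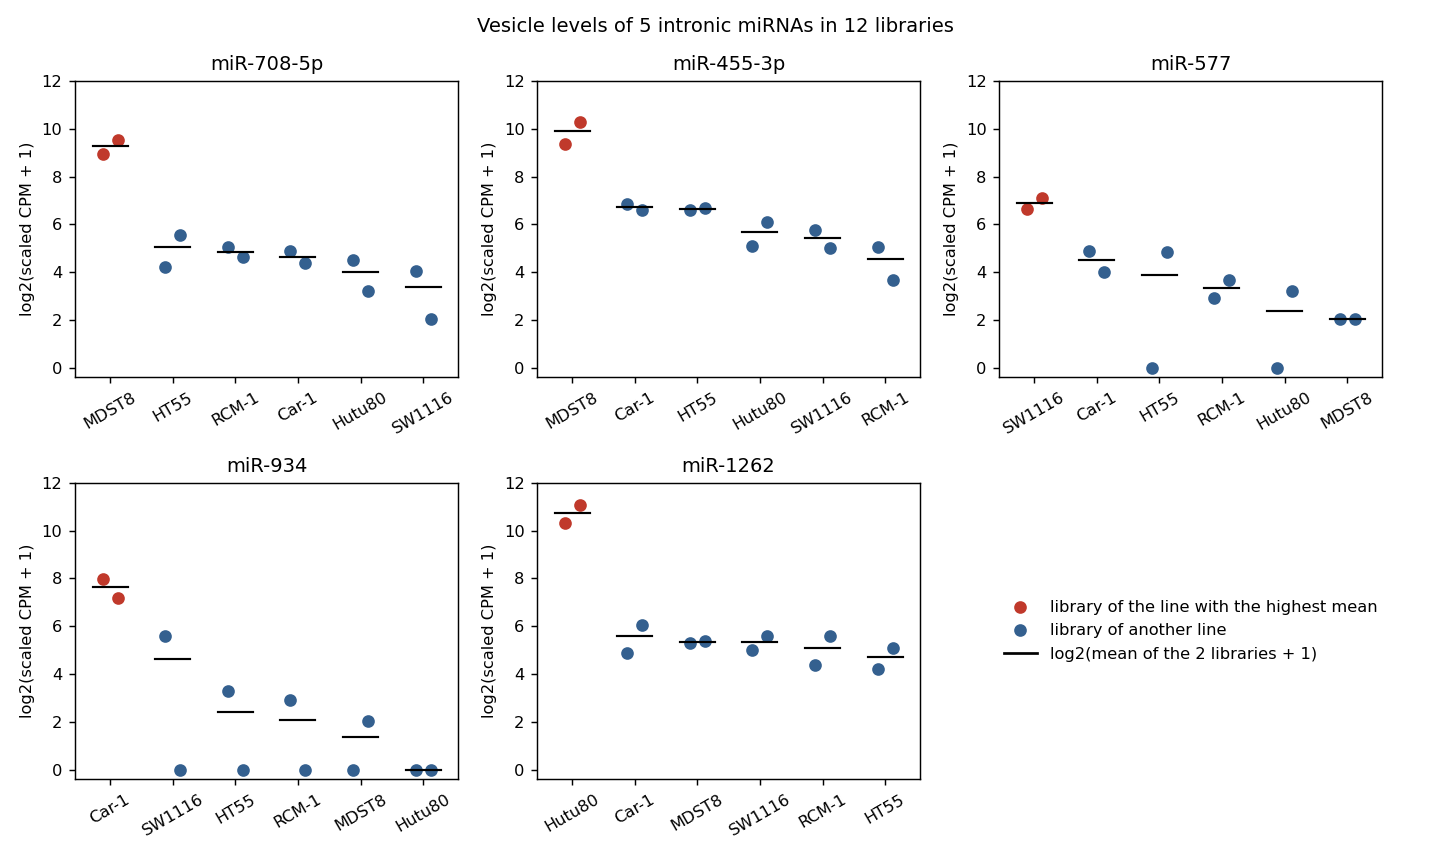
Level of each miRNA in every library, as log2(TMM-scaled CPM + 1), with the line of the highest mean at the left and the others in falling order of their mean; bars mark the log2 of the mean of the 2 libraries plus 1. In all 5 panels both libraries of the first line lie above every other library, and the 21 counts of miR-934 in SW1116 replicate 1 stand apart from the 0 of replicate 2.

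Standing above all other libraries was common in these data. All 5 miRNAs did so by selection, and so did 15.1% of the 318 tested miRNAs in MDST8, 4.72% in SW1116, 5.66% in Car-1 and 12.6% in Hutu80, or 49.7% when any of the 6 lines is allowed. How far a miRNA is concentrated in its highest line can be read as the share that this line's mean takes of the 6 line means summed. That share was 90.2% for miR-1262, 85.8% for miR-934, 85.1% for miR-708-5p, 74.9% for miR-455-3p and 69.5% for miR-577, against a median of 33.0% over all tested miRNAs. Ranked by it, they came 4, 8, 9, 18 and 30 of 318. The ranks were part of what chose these miRNAs and are given as a description.

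Other intronic miRNAs were looked at by the same measure. Of the 318 tested, 101 had every hairpin in a same-strand intron of a protein-coding gene. Leaving out the 5, the other 96 had a median share of 31.2% in their highest line, and 45.8% of them had both libraries of a line above the other 10. Of the 174 tested miRNAs with no hairpin in such an intron, the median share was 35.2% and 48.3% had both libraries of a line on top. In 35 miRNAs no position was matched by the name of the arm, and 8 had hairpins of both kinds. Some of the 35, such as miR-28-5p and miR-186-5p, come from hairpins that the annotation places in introns of LPP and ZRANB2. The class of 101 is thus incomplete. Among the 101, a share of 70% or more was reached by 6: the 4 higher of the 5 described here, and miR-128-1-5p and miR-6834-5p, both highest in Hutu80 (72.1% and 70.1%) and named after their values were seen. That is 2 of 96 without the 5 chosen ones, beside 17 of the 174 with no hairpin in such an intron, 5 of the 35 without a matched position and 28 of all 318.

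**Figure D3:**
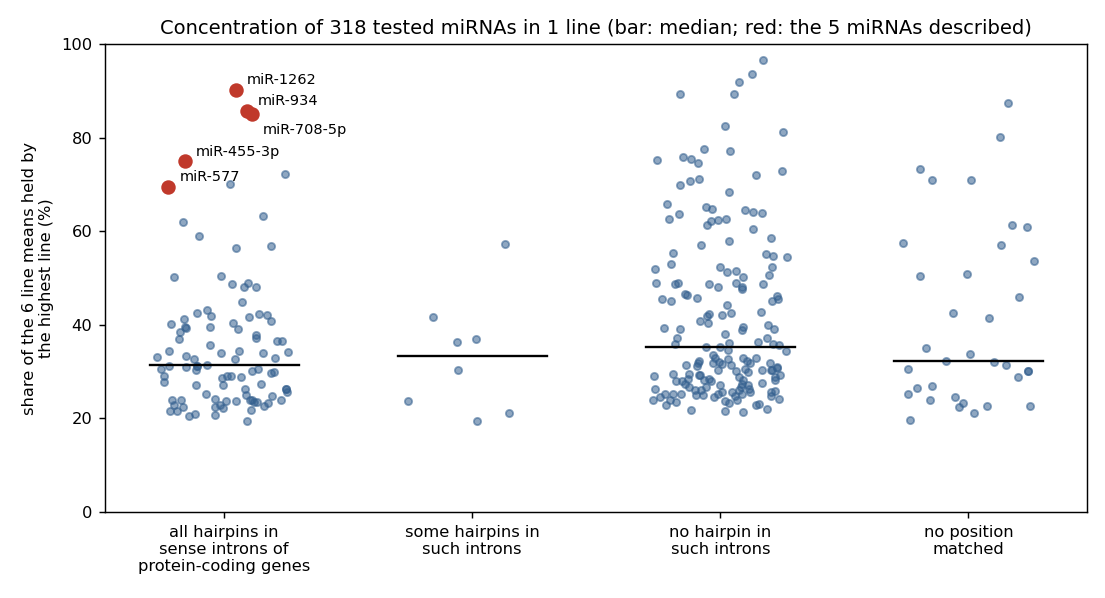
Share of the summed 6 line means that the highest line holds, in percent, for each of the 318 tested miRNAs, split by whether their hairpins lie in same-strand introns of protein-coding genes. The 5 described miRNAs (red) are at 69.5% to 90.2%, while the medians (bars) are 31.5% for the intronic class and 35.2% for miRNAs with no hairpin in such an intron.

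The opposite arms of 2 hairpins were not among the values that chose the miRNAs. They come from the same libraries and the same hairpins as miR-455-3p and miR-708-5p, and are no separate replicate of them. miR-455-5p had 45 and 21 counts in MDST8, against 0 to 5 in the other 10 libraries. It was at 143 and 66.0 scaled CPM in MDST8, against a lowest value of 0, a median of 15.4 and a highest of 26.1 in the others, so the groups did not overlap. In the edgeR quasi-likelihood test its log2 difference was 2.80 ± 0.59 (SE) in MDST8 relative to the mean of the other 5 lines, with an adjusted p of 0.000388. The filter asked for about 52.7 unscaled CPM in 2 libraries, and miR-455-5p reached that in MDST8 (at least 68.4) and in none of the other 10 libraries (at most 36.3). It was thus tested only through the line where it was high, and the test lends no support of its own. With a filter of 10 CPM in 2 libraries, which 7 of the other 10 libraries met, the difference was 2.82 (edgeR adjusted p = 0.000193). In the comparison with the first filter 22.0% of the 318 tested miRNAs were called higher. The call ended without MDST8 replicate 1 (adjusted p = 0.0982). In the other 5 lines miR-455-5p was not called against the rest, with adjusted p between 0.176 and 0.961.

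miR-708-3p had 38 and 9 counts in MDST8, against 0 to 4 in the other 10 libraries, which is 121 and 28.3 scaled CPM, against 0 to 21.9. The lower MDST8 library was 1.29 times the highest of the others, so the groups were separate but close. The ratio of the MDST8 mean to the mean of the other line means was 8.39, or 3.28 without MDST8 replicate 1 and 13.9 without MDST8 replicate 2. Its counts were too low for the filter of that test. With no filter, where 1223 miRNAs were tested, it was higher in MDST8 by 3.48 (log2, adjusted p = 0.000214), and with a filter of 10 CPM in 2 libraries by 3.38 (adjusted p = 0.000179). Both settings also admit it without MDST8, since 3 of the other 10 libraries had at least 10 unscaled CPM of it.

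Within MDST8, the 2 libraries differed in how the counts of these hairpins split between arms. miR-708-3p made up 38 of 193 counts (19.7%, 95% Wilson interval 14.7 to 25.9) in replicate 1 and 9 of 248 (3.63%, 1.92 to 6.75) in replicate 2. For miR-455-5p the shares were 45 of 251 (17.9%, 13.7 to 23.1) and 21 of 418 (5.02%, 3.31 to 7.56). Fisher's exact test, two-sided and unadjusted, gave p = 7.88e-08 and p = 1.52e-07; it compares 2 libraries and not conditions, takes each count as a separate molecule, which the sources used here do not state, and covers counting error only. The common arms, miR-708-5p and miR-455-3p, were both lower in replicate 1 than in replicate 2. Among 77 hairpins with at least 100 counts of both arms together in each MDST8 library, the rarer arm had a larger share in replicate 1 in 35, in replicate 2 in 29 and equal shares in the rest, and Fisher's test gave an unadjusted p below 0.05 in 24, of which 11 had the larger share in replicate 1. Over both MDST8 libraries miR-708-3p took 10.7% of its hairpin's counts, against 24.2% (15 of 62 counts) over the other 5 lines, and miR-455-5p took 9.87%, against 18.8% (31 of 165). These pooled shares rest on MDST8 libraries that differed from each other, and their difference from the other lines was not tested.

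**Figure D4:**
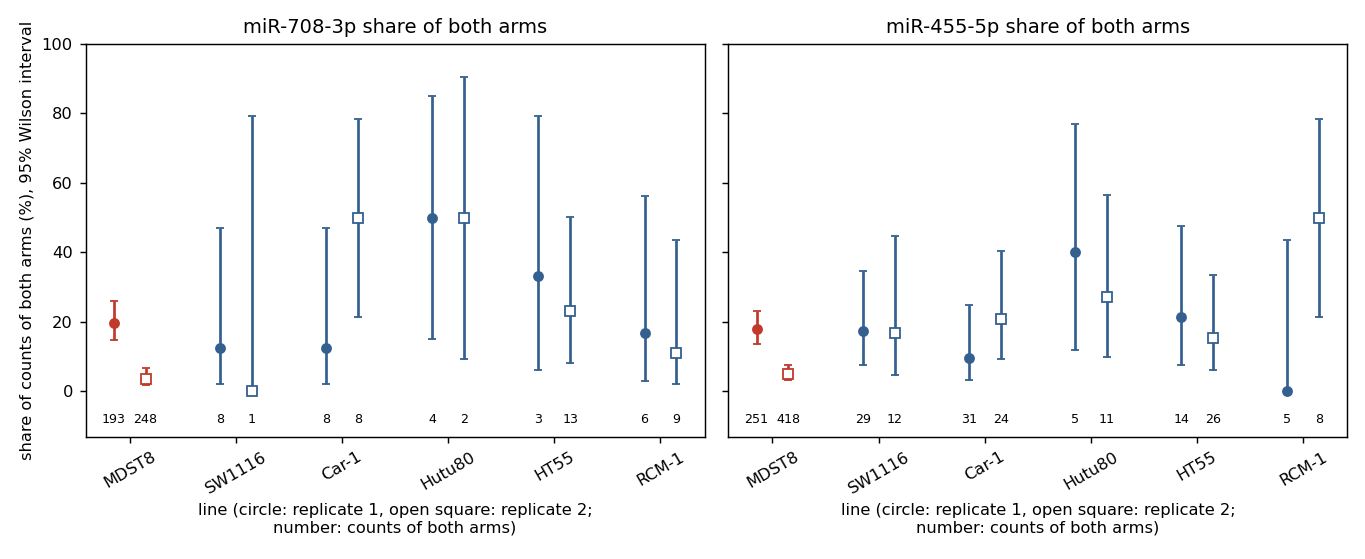
Share of a hairpin's counts that fell on its rarer arm, in percent with 95% Wilson intervals, in each library; circles are replicate 1 and open squares replicate 2, and the number under each point is the count of both arms. In MDST8 (red) the share of miR-708-3p was 19.7% in replicate 1 and 3.63% in replicate 2, and that of miR-455-5p 17.9% and 5.02%; in the other lines the intervals are wide because counts of both arms were at most 31.

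The miRNAs were chosen as concentrated in 1 line, so low levels in the other lines were part of the choice. A test among the 5 lines left after the marking line is thus not independent of it. Among those 5 lines the edgeR F-test called miR-455-3p (F = 4.85, adjusted p = 0.0106), with Car-1 highest at 104 and RCM-1 lowest at 22.3 scaled CPM. This call ended without RCM-1 replicate 2 (adjusted p = 0.0734). miR-708-5p (F = 1.48, adjusted p = 0.299) and miR-577 (F = 1.43, adjusted p = 0.298) did not pass. miR-934 did not pass either (F = 2.75, adjusted p = 0.0766), and its adjusted p was 0.815 without SW1116 replicate 1 and 0.00865 without SW1116 replicate 2. It also passed with no filter (0.00899), with a filter of 10 CPM in 2 libraries (0.0124) and in 8 of the 10 fits that left out a library of a line other than SW1116 (0.00919 to 0.0411). The share of all tested miRNAs called was 60.1% among the lines other than MDST8, 67.9% other than SW1116, 63.8% other than Car-1 and 66.0% other than Hutu80. The count of the 5 that passed is not to be read against these shares. Outside the marking line, miR-455-3p reached the filter of 52.7 unscaled CPM in 5 libraries, miR-1262 in 1 and the other 3 in none, so 4 of the 5 were tested only through their marking line. Outside their marking lines the 5 miRNAs had 24 to 134 counts over 10 libraries, and the precision of this test is limited by them.

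miR-708-5p and miR-455-3p, which share MDST8 as marking line, had a Pearson correlation of 0.83 over the 12 libraries in log2(scaled CPM + 1). The other 9 pairs among the 5 ranged from -0.39 to 0.23. The libraries are 2 per line, so these values mostly restate which line was high. Among the other tested miRNAs, the 3 with the highest correlation to each were looked up. For miR-708-5p they were miR-146a-5p (r = 0.94), miR-1269b (0.94) and miR-181a-5p (0.86). For miR-455-3p they were miR-146a-5p (0.94), let-7i-5p (0.89) and miR-100-5p (0.88). miR-146a-5p, which NF-kB signalling induces, was at 28846 ± 641 scaled CPM in MDST8, against 796 to 2813 in the other 10 libraries, and miR-1269b was at 846 ± 177, against 28.2 to 87.5. For miR-1262 they were miR-30e-3p (0.83), miR-30a-3p (0.82) and miR-1303 (0.81). miR-1303 was at 1193 ± 47.1 in Hutu80, against 31.3 to 378 in the other 10 libraries.

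miR-934 was most like miR-205-5p (r = 0.72), a miRNA of squamous and basal epithelia, at 4109 ± 1971 scaled CPM in Car-1, against 31.4 to 727 in the other 10 libraries. It was followed by miR-27b-3p (0.71) and miR-760 (0.70). For miR-577 the most alike were miR-28-5p (0.76), miR-942-5p (0.74) and let-7b-3p (0.71). miR-28-5p, known as the family partner of miR-708-5p, was at 459 ± 46.0 scaled CPM in SW1116, against 54.7 to 353 in the others. The mean of miR-708-5p was lowest in SW1116, but its range there overlapped that in Hutu80. In MDST8, where miR-708-5p was highest, miR-28-5p was at 203 and 210, and it was lowest in Hutu80 (54.7 and 109). A relation between miR-28-5p and miR-708-5p was not tested.

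**Figure D5:**
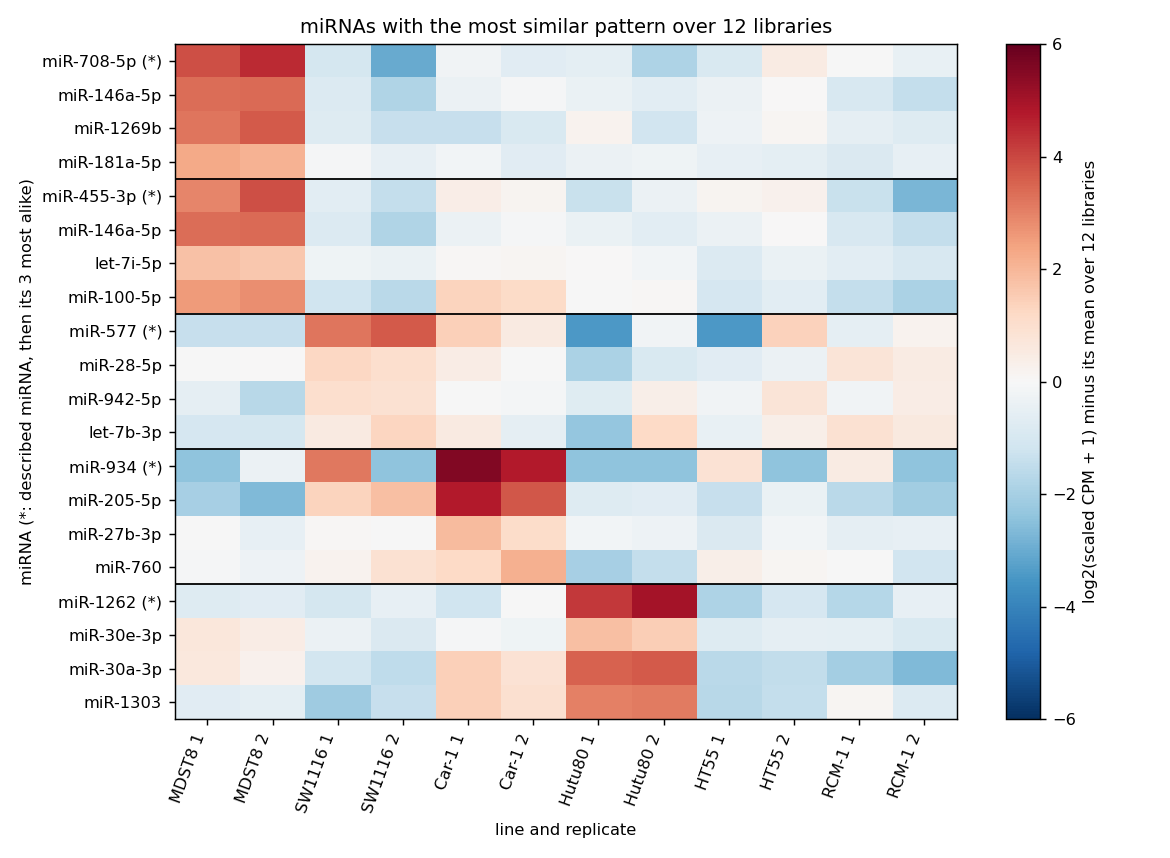
Level of each described miRNA (*) and of the 3 tested miRNAs most correlated with it, in every library, as log2(TMM-scaled CPM + 1) minus its mean over the 12 libraries. Red cells lie above the mean of their row and are not confined to 1 line in each block. miR-28-5p, for example, was at 491 and 426 scaled CPM in SW1116 and at 353 and 299 in RCM-1. miR-708-5p and miR-455-3p share miR-146a-5p, at r = 0.94 each.

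A list of other miRNAs from introns of protein-coding genes, 76 hairpins, was set beside the 5. The annotation placed every matched position of 68 of them in such an intron and none of 4, and 4 had no matched position. Of its 134 measured arms 80 were tested. In MDST8, 13 were called higher and 14 lower (list median -0.32 log2, against -0.32 over all tested miRNAs). In SW1116 it was 14 higher and 8 lower (0.01, against -0.22), in Car-1 11 higher and 12 lower (-0.01, against 0.02), and in Hutu80 18 higher and 12 lower (0.06, against 0.09). The shares called higher (16.2%, 17.5%, 13.8% and 22.5%) stood beside 22.0%, 17.6%, 21.1% and 23.0% of all tested miRNAs. The 14, 8, 12 and 12 called lower, each of 80 arms, stood beside 22.3%, 16.7%, 13.5% and 16.7% of all tested miRNAs. With library totals as the only scaling, higher calls were 20.0% of the list's calls in SW1116, against 63.6% with TMM factors, 87.9% in Car-1 (47.8% with TMM factors) and 75.9% in Hutu80 (60.0% with TMM factors). That scaling moved the median of all tested miRNAs by -0.67 in SW1116, 0.62 in Car-1 and 0.35 in Hutu80, and RLE factors moved it by 0.12 in MDST8. The number of list members called dropped to 9 of 22 without SW1116 replicate 2, to 13 of 23 without either Car-1 library, and to 18 and 14 of 30 without Hutu80 replicate 1 or 2.

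Among called list members whose pair of libraries lay beyond all 10 others, the largest rises in MDST8 were in miR-152-3p, from COPZ2, miR-140-3p, a cartilage miRNA from WWP2, and miR-107, from PANK1. miR-152-3p was at 3037 ± 87.8 scaled CPM in MDST8, against 174 to 1125 in the other 10 libraries (2.94 ± 0.22 higher on the log2 scale, edgeR adjusted p = 6.83e-11). miR-140-3p was at 1477 ± 185, against 179 to 1007 (1.55 ± 0.23, adjusted p = 5.96e-06). miR-224-5p, from GABRE, fell by 2.71 ± 0.28 in MDST8 (adjusted p = 1.42e-08), and miR-93-3p and miR-501-3p were the next lower.

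In SW1116, miR-338-5p, miR-10a-5p and miR-10a-3p rose most. miR-338-5p, from AATK, was at 280 ± 5.50 scaled CPM in SW1116, against 9.42 to 251 in the others (2.91 ± 0.42 higher, edgeR adjusted p = 6.72e-06). miR-140-3p, miR-342-3p and miR-500a-3p were lower there. In Car-1, miR-615-3p, miR-27b-3p and miR-23b-3p rose most. miR-27b-3p was at 3762 ± 1502 in Car-1, against 703 to 1344 (1.85 ± 0.23 higher, edgeR adjusted p = 6.51e-07). miR-10a-5p, miR-378a-3p and miR-652-3p were lower. In Hutu80, miR-218-5p, miR-30e-3p and miR-501-5p rose most, and both arms of miR-28 were lower. miR-218-5p, from SLIT2 and SLIT3, was at 4154 ± 470 in Hutu80, against 276 to 3502 (2.02 ± 0.25 higher, edgeR adjusted p = 3.11e-07).

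Of the calls named for these 4 lines, 8 ended when 1 library was left out. Without MDST8 replicate 1 the adjusted p was 0.237 for miR-501-3p, and without MDST8 replicate 2 it was 0.19 for miR-93-3p. Without SW1116 replicate 2 it was 0.142 for miR-342-3p and 0.168 for miR-500a-3p, and without SW1116 replicate 1 it was 0.0501 for miR-500a-3p. It was 0.0842 for miR-615-3p without Car-1 replicate 1, and 0.0545 for miR-28-5p without Hutu80 replicate 1. The calls of miR-652-3p and miR-501-5p ended in 5 and 6 of the 12 fits (highest adjusted p 0.122 and 0.274), and that of miR-501-3p also without Car-1 replicate 1 (0.0554) or Hutu80 replicate 2 (0.0852).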

How the data were processed

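Vesicle small RNA of 12 libraries, 2 from each of 6 cell lines, was analysed. Per the labels' protocols, vesicles were isolated by ultrafiltration and size-exclusion chromatography, RNA was extracted with a serum/plasma miRNA kit, and libraries carried unique molecular identifiers (the IsoSeek protocol). Reads were set against hg38, as the submitters' processing notes name it. For the aligner, miRNA annotation, counter and any collapsing by identifier: not given in the sources used here. The authors deposited whole-number counts per mature miRNA and log2 values. The deposited log2 values equal log2(CPM + 1) of those counts (largest difference 5e-14 over 19632 values) and were not used further.

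Counts were tested with edgeR 4.0.16 (R 4.3.3): TMM scaling, filterByExpr by line, robust quasi-likelihood fit over all 12 libraries, 318 miRNAs tested holding 99.7% of counts, Benjamini-Hochberg adjustment over all 318, threshold 0.05. Each line was set against the mean of the other 5, and the 5 lines left after a marking line were compared by an F-test. The tests were tried on simulated counts. Alternatives were RLE factors, library totals, other filters, DESeq2 1.42.0, limma-voom (limma 3.58.1) and a replicate block. Further fits left out the 10 miRNAs with the highest mean share of a library's counts, or 1 library at a time. Levels are TMM-scaled CPM. Total counts of 71831 to 622800 per library limit the precision of low miRNAs. The 2 libraries of a line were not repeats of 1 deposit: chi-square per degree of freedom was 6.75 to 51.4.

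The members and lists were chosen with earlier results of these data known. Named list members are up to 3 called higher and 3 called lower per marking line by size, whose 2 libraries both lay outside the values of all 10 others.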

Additional observations from a re-analysis of the deposited data

How the results depend on the processing

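The ratios of the 5 miRNAs and of miR-708-3p, and the difference of miR-455-5p, kept their direction under every alternative run. With all 12 libraries kept, the named list calls held in 173 cases (1 call in 1 alternative) and were lost in 9. The losses fell on miR-652-3p, miR-501-5p, miR-500a-3p and miR-501-3p. With no filter the edgeR adjusted p was 0.141 for miR-652-3p in Car-1 and 0.238 for miR-501-5p in Hutu80. With library totals as the only scaling, the log2 ratio was 2.69 for miR-577 and 5.82 for miR-934. In SW1116 35 list members were then called, against 22, and calls over all 318 tested miRNAs rose as well, from 109 to 132. For miR-934 among the lines other than Car-1, adjusted p was 0.00899 with no filter and 0.0124 with 10 CPM in 2 libraries, against 0.0766 with filterByExpr. When each library was left out in turn, that adjusted p ran from 0.00865 to 0.815 and that of miR-455-3p from 0.00469 to 0.0734. The log2 ratio ran from 4.07 to 6.72 for miR-934, from 4.83 to 5.56 for miR-1262 and from 3.20 to 4.16 for miR-577. The log2 difference of miR-455-5p in MDST8 ran from 2.18 to 3.60. List members called ran from 18 to 31 in MDST8, 9 to 22 in SW1116, 13 to 25 in Car-1 and 14 to 30 in Hutu80. Over all tested miRNAs, calls dropped to 49 in SW1116 without SW1116 replicate 2 (109 with it) and to 67 in Car-1 without Car-1 replicate 1 (110).

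With 2 libraries per line, a fit without 1 of them assumes that the lone library varies like the other lines, and its smaller group lets 366 to 396 miRNAs through the filter. In the labels, same-numbered libraries of different lines share only a number. Over 15 pairs the correlation of their deviations ran from -0.105 to 0.249, and 4 were over 0.1. Whether some lines shared a batch was not tested. With the replicate block, miR-455-5p, tested only through its MDST8 counts, differed in MDST8 by 2.78 (edgeR adjusted p = 0.000589). The edgeR adjusted p among the other lines was then 0.0118 for miR-455-3p and 0.123 for miR-934, and no call of the 5 miRNAs changed. List calls under the block were 26 in MDST8, 23 in SW1116, 24 in Car-1 and 31 in Hutu80. Over all 318 tested miRNAs they were 138, 107, 116 and 126. Depth limits miR-577, miR-934 and both rarer arms, for which 1 count was worth 2.23 to 10.9 scaled CPM.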
